A study of Homo sapiens with 8 samples.

Results

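The genes described are 7 around the sodium pump: ATP1B1 and ATP1B3, which encode beta subunits of the pump, FXYD1, FXYD2, FXYD3 and FXYD5, which encode small membrane proteins that bind it, and LGI4, which encodes a secreted protein and is the chromosomal neighbour of FXYD3. These 7 of 58302 genes counted were chosen by symbol after the measured difference between confluent and growing cells had been seen for some of them, so that difference is given below as a description. The calls of the fit on it are counted once, with nothing read from them. The cells were Caco-2/15, a clone of a human colon cancer line whose cells grow as a sheet and turn enterocyte-like once the sheet is closed. In Z1flag cells an allele of H2AFZ, the gene for histone variant H2A.Z.1, carried a Flag tag in the heterozygous state, and in Z2flag cells the tagged gene was H2AFV, which encodes H2A.Z.2. Every library therefore came from tagged cells, with no untagged line among the samples analysed. Each line was sampled while subconfluent and again 7 days after confluence, with 2 libraries of strand-specific, rRNA-depleted RNA in each of the 4 groups. The sources used here give neither the number of clones behind each line nor whether the 2 libraries of a group came from separate cultures, so p-values measure only the spread between these libraries.

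The sodium pump is an ATPase that moves sodium out of the cell and potassium in. Its beta subunit is a glycoprotein that the catalytic subunit needs to fold and to reach the membrane, and an FXYD protein can join the complex and tune its kinetics. In absorptive gut epithelium the pump lies in the basolateral membrane and drives uptake of sodium and, with it, of glucose and amino acids. LGI4 belongs to another family: Schwann cells secrete it, and it acts on ADAM22 at the axon during myelination of peripheral nerves.

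FXYD3, LGI4 and FXYD5 lie within a short stretch of chromosome 19 (all gene positions are GENCODE v29 on GRCh38). FXYD3 lies on the plus strand from 35115879 to 35124324 and LGI4 on the minus strand from 35124513 to 35142451. Their 3′ ends thus face each other and their start sites lie at opposite, outer ends of the pair. FXYD1 (plus strand, 35138808 to 35143109) overlaps the body of LGI4 but shares 0 exon bases with it, and FXYD5 (plus strand, 35154730 to 35169883) follows. The DNA before a RefSeq start is shown for the 3 genes of this stretch that were higher after confluence, beside ATP1B3 as a pump gene expressed in both states. The sequences are from RefSeq (GRCh38.p14), read 5′ to 3′ on the gene's strand, and capitals mark matches to a motif described next. Of the 250 bases before each RefSeq start, the stretch outside annotated exons is printed: chr19:35117750-35117999 (plus strand) for FXYD3, chr19:35135201-35135309 (minus strand) for LGI4, chr19:35154485-35154729 (plus strand) for FXYD5 and chr3:141876395-141876613 (plus strand) for ATP1B3.
FXYD3: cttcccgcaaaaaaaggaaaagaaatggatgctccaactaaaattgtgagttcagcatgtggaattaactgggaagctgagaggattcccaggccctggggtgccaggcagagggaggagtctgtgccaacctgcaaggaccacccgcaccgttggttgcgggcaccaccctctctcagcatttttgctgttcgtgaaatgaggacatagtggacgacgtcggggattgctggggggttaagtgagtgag
LGI4: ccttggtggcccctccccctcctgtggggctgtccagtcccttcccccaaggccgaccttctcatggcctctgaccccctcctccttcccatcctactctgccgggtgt
FXYD5: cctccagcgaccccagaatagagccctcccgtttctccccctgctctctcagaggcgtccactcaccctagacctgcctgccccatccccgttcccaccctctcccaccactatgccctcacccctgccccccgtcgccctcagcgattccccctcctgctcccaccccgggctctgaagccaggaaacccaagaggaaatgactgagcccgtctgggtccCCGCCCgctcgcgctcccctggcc
ATP1B3: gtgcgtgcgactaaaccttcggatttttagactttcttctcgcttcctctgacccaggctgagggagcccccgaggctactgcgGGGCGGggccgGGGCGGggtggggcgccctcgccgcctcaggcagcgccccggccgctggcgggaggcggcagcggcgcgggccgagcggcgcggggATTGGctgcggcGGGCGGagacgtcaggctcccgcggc
Longer FXYD3 transcripts start upstream of the FXYD3 window, which therefore lies inside the gene body, in no exon. The LGI4 window (chr19:35135060-35135309) likewise lies inside the LGI4 body, short of its annotated 5′ end, and some of its bases are exonic.

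The whole 250-base windows, with the bases not printed, were searched on both strands for 7 motifs, and matches to different motifs could overlap. These were TATAAA (the TATA box, in 10.8% of 34943 RefSeq windows of that length), CCAAT (32.0%), GGGCGG (the GC box, 42.5%), TTTATNG (a CDX-type element, 8.95%), CAAAGTCCA (an HNF4-type element, 0.326%), TGANTCA (the AP-1 site, 6.59%) and ACGTG (the hypoxia core, 18.5%). The FXYD3 and LGI4 windows held 0 matches to any of the 7. The FXYD5 window held 1 GC box. The ATP1B3 window held 4 GC boxes, 1 CCAAT box and 1 ACGTG, and the ATP1B1 window 2 GC boxes, 1 CCAAT box and 1 ACGTG. GC content was 77.6% for ATP1B1 and 77.2% for ATP1B3, 68.0% for FXYD5, 64.4% for LGI4 and 53.6% for FXYD3, against a median of 58.0% over all windows. Of the 7 genes, 6 had an entry in the promoter table, and FXYD2 had none.

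Levels are in CPM, gene counts divided by TMM-scaled library size, and depth was 17063826 to 40881682 gene counts per library. The share of reads in no annotated feature was 31.4% and 32.0% in postconfluent and subconfluent Z1flag replicate 1 and 20.6% to 24.5% in the other 6 libraries. Replicates are listed below in the order 1 and 2. The 7 genes fell into 3 ranges of level, as the plot of the 7 genes by library shows: ATP1B1 and ATP1B3 were abundant in both states, FXYD3, LGI4 and FXYD5 were scarce in growing cells and clearly present after confluence, and FXYD1 and FXYD2 were close to the limit of counting throughout.

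**Figure D1:**
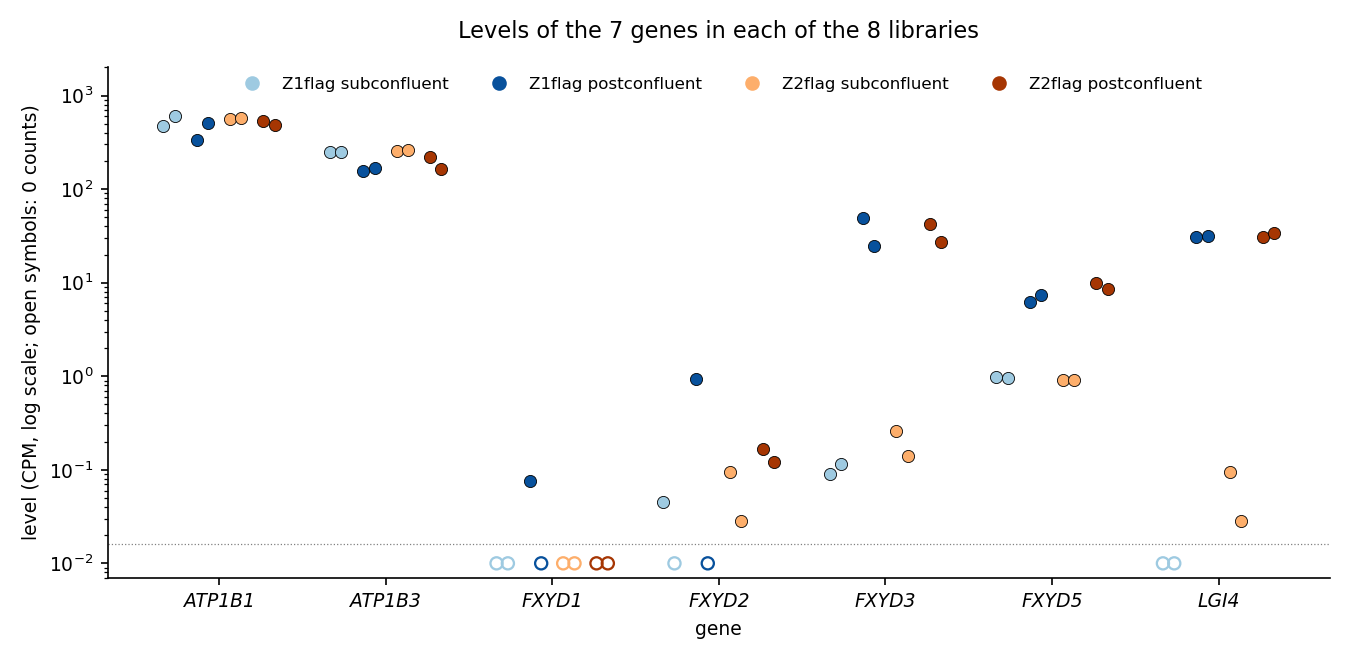
Level of each of the 7 genes in each library, in CPM on a log scale; each point is 1 library, with replicates 1 and 2 side by side, and open symbols below the dotted line are libraries with 0 counts. ATP1B1 and ATP1B3 lie between 158 and 608 CPM in all 8 libraries, while the postconfluent points of FXYD3, FXYD5 and LGI4 lie above all of their subconfluent points.

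ATP1B1 encodes the beta-1 subunit, the beta form of most epithelia, whose sugar-bearing outer part also holds neighbouring cells together. Its level was 476 and 608 CPM in subconfluent Z1flag cells and 333 and 506 CPM in postconfluent Z1flag cells. The Z2flag libraries had 567 and 582 CPM before and 530 and 488 CPM after confluence. The ranges overlapped in Z1flag cells, where postconfluent replicate 2 lay above subconfluent replicate 1, and did not overlap in Z2flag cells, where the gap was small. The log2 difference, postconfluent minus subconfluent, was -0.37 (SE 0.23) in Z1flag and -0.18 (SE 0.23) in Z2flag cells. The Z1flag value was -0.06 without postconfluent Z1flag replicate 1 and -0.71 without replicate 2, and the Z2flag value was -0.03 without postconfluent Z2flag replicate 2. ATP1B1 shares 6.48% of its exon bases with NME7 on the opposite strand, and the sources used here do not say whether strand was used in counting.

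ATP1B3 encodes the beta-3 subunit, a more widely expressed form. It stood at 249.67 and 248.88 CPM in subconfluent Z1flag cells, and at 158 and 168 CPM in postconfluent ones. In Z2flag cells the values were 253 and 259 CPM, then 223 and 164 CPM. All 4 postconfluent libraries lay below all 4 subconfluent ones, but postconfluent Z2flag replicate 1 lay nearer to the subconfluent libraries than the other 3. The log2 difference was -0.61 (SE 0.20) in Z1flag and -0.40 (SE 0.20) in Z2flag cells. On leaving out 1 library the Z1flag value lay between -0.66 and -0.53. The Z2flag value lay between -0.55 and -0.11, the latter without postconfluent Z2flag replicate 2.

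FXYD3 encodes a regulator, also called Mat-8, that is made in stomach and colon epithelium and in several carcinomas and that lowers the pump's affinity for sodium and potassium. It was close to absent in growing cells, at 0.0901 and 0.115 CPM in Z1flag and 0.261 and 0.141 CPM in Z2flag libraries. These levels rest on 2, 3, 11 and 5 counts. After confluence the gene stood at 48.9 and 24.5 CPM in Z1flag and 41.9 and 27.3 CPM in Z2flag cells. Every postconfluent library lay far above every subconfluent one, and within each line replicate 1 was the higher of the postconfluent pair. The depth-scaled ratio of summed counts was 373 (exact 95% interval 159 to 1149) in Z1flag and 169 (104 to 297) in Z2flag cells. Intervals cover counting error only and leave out the spread between the libraries. The fitted log2 difference was 8.41 (SE 0.56) in Z1flag and 7.37 (SE 0.50) in Z2flag cells.

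LGI4 was at or close to 0 in growing cells and nearly even across the postconfluent libraries. It had 0 counts in both subconfluent Z1flag libraries, and 4 and 1 counts (0.0951 and 0.0281 CPM) in the subconfluent Z2flag libraries. After confluence it stood at 30.9 and 31.5 CPM in Z1flag and 30.9 and 33.6 CPM in Z2flag cells. The 4 postconfluent libraries were close to each other, unlike those of FXYD3, which spread from 24.5 to 48.9 CPM. In Z1flag cells the summed count went from 0 to 1435, at least 503-fold higher when the subconfluent group is set at 3 counts over both libraries. In Z2flag cells it went from 5 to 1119, a depth-scaled ratio of 500 (exact 95% interval 213 to 1542). The fitted log2 differences of 12.66 in Z1flag and 8.87 in Z2flag cells depend on the prior count and bound nothing; without subconfluent Z2flag replicate 1 the Z2flag value was 9.90. A separate annotated transcript, ENSG00000279619, lies inside the LGI4 body on the same strand without sharing its exons. It had 1 and 0 counts before and 15 and 7 after confluence in Z1flag libraries, and 0 and 0, then 7 and 3, in Z2flag libraries.

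FXYD5 encodes dysadherin, a regulator with a long outer domain that is known for weakening cell adhesion when abundant. Its level was 0.991 and 0.954 CPM in subconfluent Z1flag cells and 6.20 and 7.45 CPM in postconfluent ones. The Z2flag values were 0.903 and 0.900 CPM, then 9.87 and 8.60 CPM. The subconfluent libraries were nearly level and all lay below all postconfluent ones, among which the Z2flag pair was above the Z1flag pair. The depth-scaled count ratio was 6.93 (5.09 to 9.64) in Z1flag and 10.3 (7.91 to 13.5) in Z2flag cells, and the log2 difference was 2.80 (SE 0.31) and 3.35 (SE 0.31). Per kb of exon, which allows levels to be compared between genes, FXYD3 was 0.0816 to 0.260 of FXYD5 in the 4 subconfluent libraries and 2.85 to 7.08 times FXYD5 in the 4 postconfluent ones. The order of these 2 regulators by level was thus FXYD5 above FXYD3 in all 4 growing libraries and the reverse in all 4 postconfluent ones.

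FXYD2, the kidney gamma subunit of the pump, had 1 and 0 counts in subconfluent and 25 and 0 counts in postconfluent Z1flag libraries. In Z2flag cells it had 4 and 1, then 3 and 2 counts. The single high library was postconfluent Z1flag replicate 1, at 0.945 CPM, and the other postconfluent Z1flag library had none. The Z1flag count ratio of 26.3 (exact 95% interval 4.30 to 1079) therefore rests on that library, whose share of reads in no feature was 31.4%, and the part of that share in the count was not tested. In Z2flag cells the ratio was 2.23 (0.514 to 9.70), an interval that includes no difference. FXYD2 shares 7.01% of its exon bases with the read-through gene FXYD6-FXYD2, which had 0 counts in all 8 libraries.

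FXYD1 encodes phospholemman, the regulator of heart and skeletal muscle. It had 2 counts in postconfluent Z1flag replicate 1 (0.0756 CPM) and 0 in the other 7 libraries. With 0 counts, the depth allows a level of up to 0.0713 CPM in the deepest of these libraries and 0.180 CPM in the shallowest, taking 3 counts as the limit. FXYD1 was thus not detected at this depth in the 4 subconfluent libraries. It shares 26.1% of its exon bases with ENSG00000221857 on the same strand and 24.2% with ENSG00000279619 on the opposite strand. Reads on shared bases may have been left out as ambiguous, since the counting mode is not given. The part of this in the counts of 0 was not tested.

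FXYD1 and FXYD2 did not pass the filter on low counts, which left 5 of the 7 genes among the 18240 tested. In Z1flag cells 3 of the 7 (FXYD3, FXYD5 and LGI4) were called higher, where 21.3% of all genes tested were, and 1 (ATP1B3) lower, where 19.1% were. In Z2flag cells the same 3 were called higher, against 18.3% of all genes, and 0 of the 7 lower, against 19.3%. A call is an adjusted p under 0.05 from edgeR's quasi-likelihood test with Benjamini-Hochberg adjustment over all genes. Since the contrast itself brought these genes into the set, nothing is read from the counts. The ATP1B3 call was lost in 9 of 18 alternative analyses, among them leaving out any of the 4 subconfluent libraries or postconfluent Z1flag replicate 1, and ATP1B1 gained a Z1flag call without postconfluent Z1flag replicate 2. The plot of changes by line shows the sizes in both lines, which come from different libraries.

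**Figure D2:**
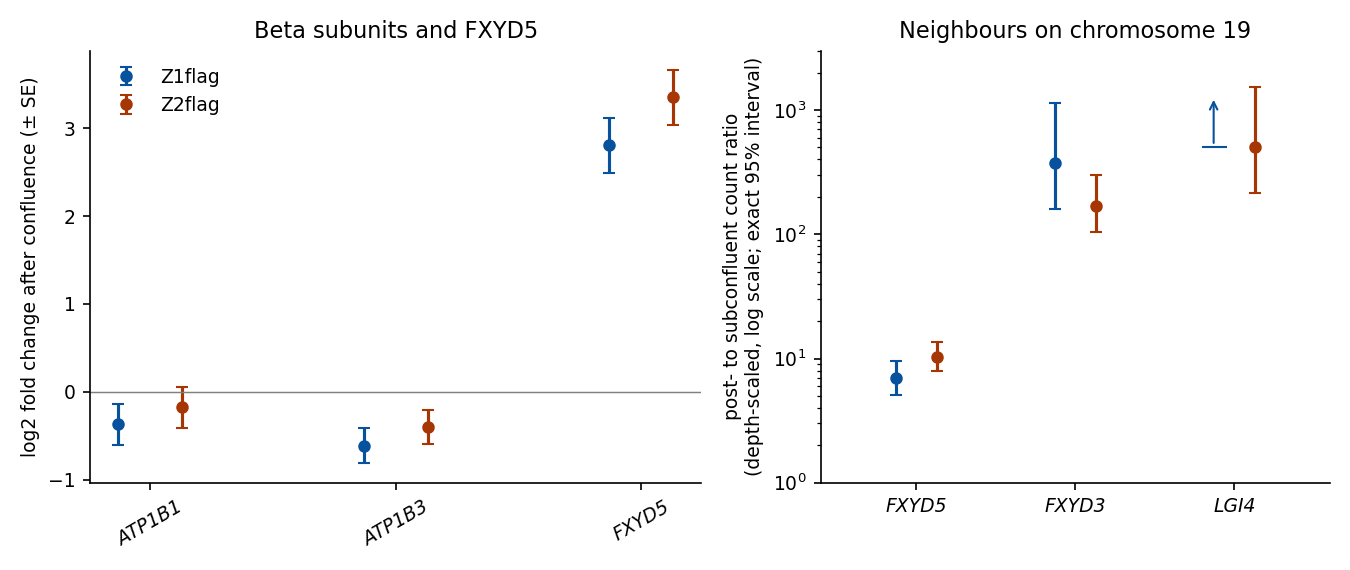
Left, edgeR log2 fold change after confluence (points) with its SE (bars) for the beta subunits and FXYD5 in Z1flag (blue) and Z2flag (brown) cells. Right, depth-scaled ratio of summed counts, postconfluent to subconfluent, on a log scale with exact 95% intervals; the arrow is the lower bound of 503 for LGI4 in Z1flag cells, where the subconfluent count was 0. ATP1B1 and ATP1B3 lie below 0 and FXYD5 above 0 in both lines.

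The comparison of the lines was not used to choose the genes and was tested. Whether the confluence change differed between the lines was asked by the interaction term, Z2flag change minus Z1flag change, for which 0% of the 18240 genes were called. For ATP1B1 the difference was 0.19 (SE 0.33, edgeR adjusted p = 0.912) and for ATP1B3 0.21 (SE 0.28, adjusted p = 0.875). For FXYD3 it was -1.04 (SE 0.89, adjusted p = 0.816) and for FXYD5 0.55 (SE 0.42, edgeR adjusted p = 0.800). For LGI4 it was -3.79 (SE 1.39, adjusted p = 0.799), a size that rests on 0 against 5 subconfluent counts. No member's change was therefore shown to differ between Z1flag and Z2flag cells. The SEs of FXYD3 and FXYD5 leave room for differences of more than 1 on the log2 scale. For LGI4 the fitted difference and its SE depend on the prior count and bound nothing.

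Levels of the 2 lines were also compared within each state. In subconfluent cells 0% of genes were called, and the 5 genes tested had edgeR adjusted p = 1. The Z2flag minus Z1flag difference in that state was 0.96 (SE 0.82) for FXYD3 and 3.83 (SE 1.37) for LGI4. These rest on 2 to 11 counts of FXYD3 and 0 to 4 counts of LGI4 per library. At such counts the test cannot show the lines to be alike in growing cells for these genes. In postconfluent cells 0% were called as well. There the Z2flag minus Z1flag difference was 0.28 (SE 0.23, adjusted p = 0.708) for ATP1B1 and 0.25 (SE 0.20, adjusted p = 0.697) for ATP1B3. It was -0.09 (SE 0.34, edgeR adjusted p = 0.942) for FXYD3, 0.44 (SE 0.28, adjusted p = 0.654) for FXYD5 and 0.05 (SE 0.24, adjusted p = 0.957) for LGI4. At an unadjusted p under 0.05, edgeR gave 902 genes for the interaction, 195 between lines in subconfluent and 1308 in postconfluent cells, and DESeq2 and limma voom called 0 genes in all 3. Without postconfluent Z1flag replicate 2 the calls became 190 for the interaction and 2252 between postconfluent lines, and none of the 5 genes was among them: the lowest adjusted p over every alternative was 0.0557, for ATP1B1 between the postconfluent lines.

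Levels per kb of exon also set the beta forms against each other. ATP1B1 was above ATP1B3 in every library and made up 62.5% and 68.0% of the beta messages in subconfluent and 64.7% and 72.4% in postconfluent Z1flag cells. The Z2flag shares were 66.2% and 66.2%, then 67.4% and 72.1%. Over the 4 libraries of a state, 2 of each line, the share was 65.7% ± 2.35 (SD, n = 4) before and 69.1% ± 3.73 (SD, n = 4) after confluence, with overlapping ranges. The ratio of FXYD3 to FXYD5 on the same scale was 0.147 ± 0.0787 (SD, n = 4) before and 4.17 ± 1.98 (SD, n = 4) after confluence, and postconfluent Z1flag replicate 1, with the highest FXYD3 and the lowest postconfluent FXYD5, had the highest ratio. The plot of levels per kb shows both.

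**Figure D3:**
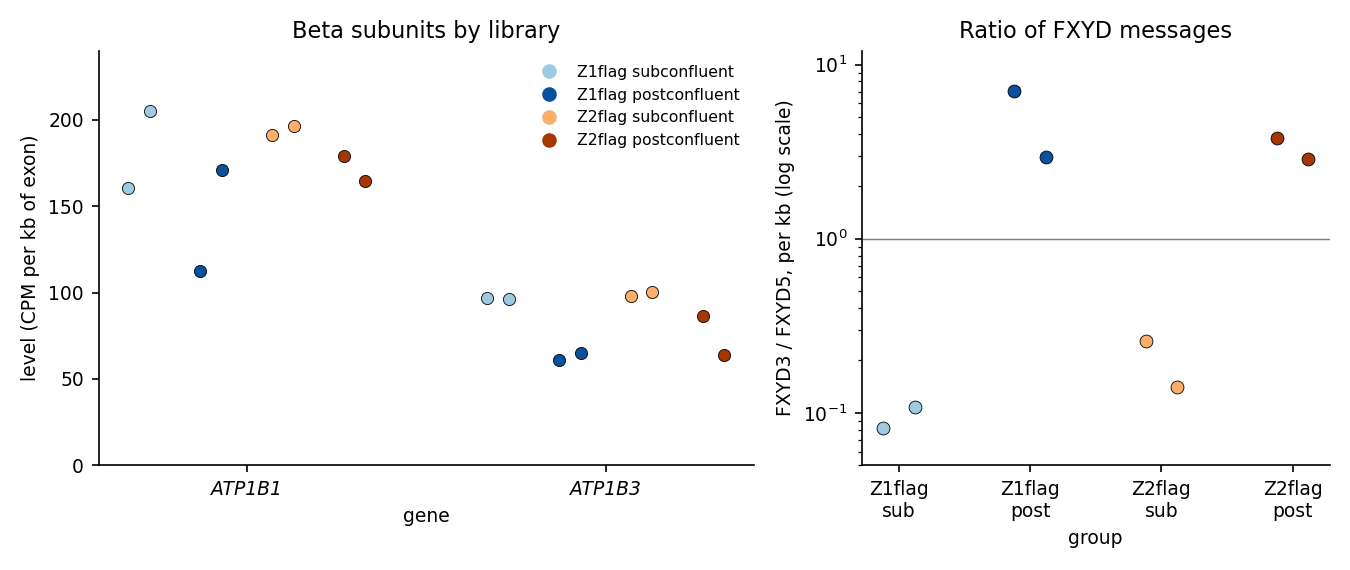
Left, levels of ATP1B1 and ATP1B3 in CPM per kb of exon, 1 point per library. Right, the ratio of FXYD3 to FXYD5 on the same scale (log axis, grey line at equal levels), 2 libraries per group; subconfluent libraries lie at 0.0816 to 0.260 and postconfluent ones at 2.85 to 7.08.

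The other beta genes, ATP1B2 and ATP1B4, and the other FXYD genes, FXYD4, FXYD6 and FXYD7, were too low to be tested. Their summed levels were highest at 0.496 CPM for the beta genes and 0.601 CPM for the FXYD genes.

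Genes related to the pump, to sodium and potassium transport or to LGI4 were counted over 43 genes. They were listed as beta and FXYD relatives, related pumps and NKAIN genes, sodium entry, its control, potassium recycling and the LGI family with its receptors. Of these genes, 26 were tested: 5 rose and 5 fell in Z1flag cells, and 5 rose and 7 fell in Z2flag cells. The LGI family and its receptors, which are no pump genes, supplied 1 of the Z1flag and 2 of the Z2flag genes that fell. Over all genes tested, 21.3% were called higher and 19.1% lower in Z1flag cells, and 18.3% and 19.3% in Z2flag cells, and with so few genes nothing particular to the lists is read from their counts. Their median log2 change was 0.24 and -0.11, against 0.04 and -0.05 over all genes tested. Among sodium entry routes, SLC5A1, the glucose-coupled transporter SGLT1 of the absorptive brush border, rose by 2.37 in Z1flag (SE 0.69, edgeR adjusted p = 0.0204) and 3.29 in Z2flag cells (SE 0.61, adjusted p = 0.00282). These sizes rest on few counts, 6 and 5 in subconfluent Z1flag and 18 and 7 in subconfluent Z2flag libraries. Pairs of values below are likewise for Z1flag and then Z2flag cells. SLC12A2, the basolateral cotransporter NKCC1 that loads chloride for secretion, fell, with changes of -3.04 (SE 0.35, edgeR adjusted p = 0.000318) and -2.92 (SE 0.35, adjusted p = 0.000427). SLC9A2, a sodium-proton exchanger, fell (-1.09, SE 0.28, and -0.88, SE 0.28), and the epithelial sodium channel genes SCNN1B and SCNN1G had 0 counts in all libraries. Over the 9 sodium entry genes, 6 were tested, with 2 rising and 2 falling in Z1flag and 1 rising and 2 falling in Z2flag cells.

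Among 9 control genes, all tested, WNK4, a kinase that regulates cation-chloride cotransport, rose by 3.19 (SE 0.35) and 2.57 (SE 0.33). WNK1, a kinase of the same family, fell (-0.80, SE 0.21, and -0.63, SE 0.21), and STK39, the kinase SPAK on which both act, rose in Z2flag cells by 1.07 (SE 0.26) with a value of 0.64 (SE 0.27) in Z1flag cells. The other 6 did not pass the test in either line. Of 7 potassium channel genes 5 were tested: KCNN4, a basolateral calcium-activated channel, rose by 4.51 (SE 0.80) and 3.83 (SE 0.67), and KCNE3, the partner of KCNQ1 in crypts, fell (-0.91, SE 0.22, and -1.54, SE 0.23). The KCNN4 sizes rest on few counts, 2 and 2 in subconfluent Z1flag and 12 and 1 in subconfluent Z2flag libraries. KCNMA1, a large-conductance channel, fell by 1.28 (SE 0.30) in Z2flag cells, with -0.72 (SE 0.30) in Z1flag cells. NKAIN4, whose product binds the beta-1 subunit and which was the only tested gene of 7 related pump and NKAIN genes, rose by 3.09 (SE 0.51) and 1.33 (SE 0.46).

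Several of these calls were lost when 1 library was left out. In Z1flag cells, SLC5A1 lost its call without postconfluent replicate 2 (1.70) or subconfluent replicate 1 (2.61) or 2 (2.13). SLC9A2 lost it without subconfluent Z1flag replicate 1 (-1.16) or 2 (-1.04), WNK1 without subconfluent Z1flag replicate 1 (-0.61) and KCNE3 without subconfluent Z1flag replicate 2 (-0.67). KCNMA1 gained a call in Z1flag cells without postconfluent Z1flag replicate 2 (-1.05). In Z2flag cells, NKAIN4 (1.23 to 1.43) and WNK1 (-0.67 to -0.51) each lost the call on leaving out any of the 4 Z2flag libraries. SLC9A2 lost it without subconfluent Z1flag replicate 2 (-0.90), postconfluent Z2flag replicate 2 (-0.55) or subconfluent Z2flag replicate 1 (-1.08) or 2 (-0.69). STK39 lost it without subconfluent Z2flag replicate 1 (1.13) or 2 (0.99). KCNMA1 lost it without postconfluent Z2flag replicate 1 (-1.16) or 2 (-1.23) or subconfluent Z2flag replicate 1 (-1.06). Other settings moved calls too. WNK1 lost its Z1flag call with upper-quartile scaling (-0.58) or only the libraries compared (-0.77). In Z2flag cells it lost the call with RLE (-0.57) or upper-quartile scaling (-0.47) or the 5 CPM filter (-0.53). SLC9A2 lost its Z2flag call with upper-quartile scaling (-0.72). In Z1flag cells STK39 gained a call with upper-quartile scaling (0.86) or the 5 CPM filter (0.78), and KCNMA1 without a filter (-0.79). SLC12A2 and WNK4 kept their calls in all 18 alternatives, and KCNN4 in the 17 in which it was tested. The KCNN4 value was 6.14 in Z2flag cells without subconfluent Z2flag replicate 1.

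The relatives and receptors of LGI4 were counted in the same way. Of 6 such genes 5 were tested: 0 were called higher in either line, while 1 was called lower in Z1flag and 2 in Z2flag cells. Over all genes tested, 21.3% were called higher and 19.1% lower in Z1flag cells, and 18.3% and 19.3% in Z2flag cells. With so few genes nothing is read from these counts. LGI1, the brain paralogue, fell by 2.65 (SE 0.72, edgeR adjusted p = 0.0153) from 0.541 and 0.878 to 0.0756 and 0.153 CPM in Z1flag cells. In Z2flag cells it fell by 3.79 (SE 0.83, adjusted p = 0.00614) from 0.784 and 0.929 to 0.110 and 0 CPM. Without postconfluent Z2flag replicate 1 the Z2flag group of LGI1 had 0 counts, and the fitted value (-7.51) is then no bound. The Z1flag call was lost without postconfluent Z1flag replicate 1 (-2.15, edgeR adjusted p = 0.0728) or subconfluent Z1flag replicate 2 (-2.25, adjusted p = 0.105). ADAM22, the receptor through which LGI4 acts in nerve, stood at 25.3 and 29.6, then 46.5 and 21.2 CPM in Z1flag cells. In Z2flag cells ADAM22 stood at 29.7 and 30.6, then 13.9 and 25.0 CPM, and its change passed the test in neither line (0.30 in Z1flag cells, -0.34 without postconfluent Z1flag replicate 1). It was thus already expressed in growing cells, where LGI4 had at most 4 counts. ADAM23, a related receptor, fell by 0.89 (SE 0.26, adjusted p = 0.0206) in Z2flag cells, with -0.42 (SE 0.25) in Z1flag cells. That Z2flag call was lost with upper-quartile scaling (-0.73), without postconfluent Z2flag replicate 1 (-0.47), and without subconfluent Z2flag replicate 1 (-0.96) or 2 (-0.86). LGI2 and ADAM11 did not pass the test in either line, and LGI3 had 1 count in all. ADAM11, at 1.15 in Z1flag cells, gained a call there with upper-quartile scaling (1.36). It also gained one without replicate 1 of postconfluent Z1flag (1.37) or of postconfluent Z2flag cells (1.16).

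Around FXYD3 and LGI4, the genes higher after confluence stood beside genes that were not, as the map of the neighbourhood shows. Of the protein-coding genes within 250 kb of the pair, 18 are described here, of which 9 were tested, the 3 members among them. Of the 6 tested genes that are no members, 2 were called higher and 0 lower in Z1flag cells, where 21.3% and 19.1% of all genes were, and 1 higher and 1 lower in Z2flag cells, against 18.3% and 19.3%. Of these, HPN, which encodes the membrane serine protease hepsin, rose in both lines. It went from 6.67 and 10.4 to 162 and 174 CPM in Z1flag and from 18.0 and 10.9 to 132 and 162 CPM in Z2flag cells. The log2 change was 4.30 (SE 0.32, edgeR adjusted p = 6.82e-05) and 3.35 (SE 0.30, adjusted p = 0.000134), and all 18 alternatives kept both calls.

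The genes between and around them differed. GRAMD1A, LSR and USF2, at levels from 34.6 to 117 CPM, did not pass the test in either line. The zinc finger gene ZNF792 rose by 1.02 (SE 0.34, adjusted p = 0.0365) in Z1flag cells and had 0.12 (SE 0.34) in Z2flag cells. Leaving out either subconfluent Z1flag library (1.03 and 0.97), either subconfluent Z2flag library (1.00 each) or postconfluent Z1flag replicate 1 (0.87) ended this call, and the Z2flag value was -0.50 without postconfluent Z2flag replicate 2. ZNF30 fell by 1.26 (SE 0.29, edgeR adjusted p = 0.00773) in Z2flag cells and had -0.63 (SE 0.28) in Z1flag cells. The Z2flag call was lost without postconfluent Z2flag replicate 1 (-1.06) or subconfluent Z2flag replicate 2 (-1.22), and a Z1flag call appeared without postconfluent Z1flag replicate 1 (-1.04). FXYD1, FXYD7, HAMP, MAG, CD22, FAM187B, FFAR1, FFAR3 and GPR42 were too low to be tested.

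**Figure D4:**
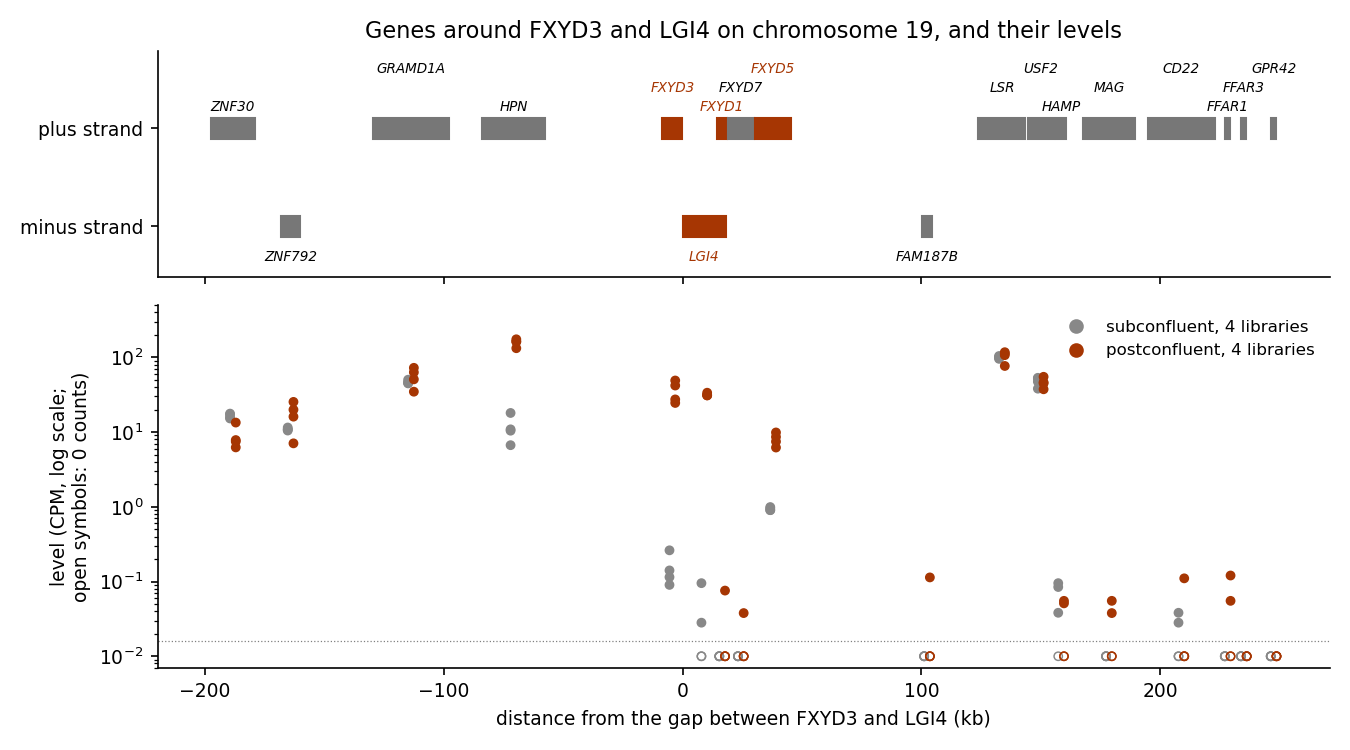
Top, the 18 protein-coding genes described within 250 kb of the gap between FXYD3 and LGI4 by strand, with the genes described here in brown; bottom, their CPM on a log scale at the middle of each gene, 4 subconfluent (grey) and 4 postconfluent (brown) libraries, open symbols for 0 counts. FXYD3, LGI4, FXYD5 and HPN, higher after confluence, and ZNF30, lower, show states that do not overlap. GRAMD1A, LSR, USF2 and ZNF792 show overlapping states.

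Likeness of pattern was described by the root-mean-square difference of log2 CPM over the 8 libraries, each gene centred on its own mean. The libraries of a line and state are shared by all genes, so this gives no test. The confluence change enters the measure and was known for some of the 7 genes when they were chosen. Ranks among them are thus a description and no support for a link. From ATP1B1, LGI4 was at rank 18239 and FXYD3 at rank 18236, so both were among the genes least like it. FXYD3 was the nearest of 18239 other genes to LGI4, at 0.60, followed by GNRH2 (0.89), PNCK (1.00), PCK1 (1.09) and SLC51A (1.11). PNCK was the nearest to FXYD3, at 0.57, followed by LGI4 (0.60), PCK1 (0.63), SLC51A (0.64) and GNRH2 (0.71). None of these 4 other genes lies on chromosome 19, and all were at or under 0.214 CPM in every subconfluent library and at or above 7.34 CPM in every postconfluent one. FXYD5 was at rank 314 for LGI4 (2.68) and HPN at rank 107 (2.22). ATP1B1 was most like ZCCHC17 (0.05), PSMD7 (0.06), UBFD1 (0.06), CNBP (0.06) and PIGT (0.06), each of which had overlapping ranges in the 2 states.

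Markers of cell types were read beside these results. The absorptive enterocyte, colonocyte and goblet cell lists held 8, 11 and 8 genes. Enterocyte genes rose in 6 of 7 tested in Z1flag and 5 of 7 in Z2flag cells, with FABP2 too low to be tested. Colonocyte genes rose in 4 and 3 of 6 tested, with CA1, CA4, AQP8, CEACAM7 and MS4A12 too low. Goblet cell genes rose in 4 and 3 of 5 tested, with MUC2, FCGBP and CLCA1 too low. In each list 0 fell, and 21.3% and 18.3% of all genes tested were called higher. In Z1flag cells SI, a brush border disaccharidase, was at 6.20 CPM in postconfluent replicate 1 and 0.561 CPM in replicate 2. SLC26A3, a chloride-bicarbonate exchanger, was at 1.63 and 0.102 CPM, so the Z1flag rise of both genes was largely in 1 library. Other genes that rose were also uneven between replicates, among them CEACAM5 in postconfluent Z2flag cells (46.1 and 4.39 CPM). Beside LGI4, 3 of 6 Schwann cell and glia genes (SOX10, S100B and CDH19) had 0 counts in all 8 libraries, and 1 of the 3 tested (PRX) rose in both lines. The summed level of that list was 24.8 to 25.1, then 30.8 to 33.1 CPM in Z1flag and 25.6 to 29.7, then 20.5 to 28.6 CPM in Z2flag cells. Beside FXYD1, of 6 striated muscle genes MYL2 had 0 counts, and 2 of the 2 tested rose in Z1flag (TNNT2 and DES) and 1 in Z2flag cells (DES). TNNT2 in Z1flag cells stood at 3.11 and 2.79 CPM before and 17.1 and 4.03 CPM after confluence, so its rise was largely in postconfluent replicate 1. DES had 0 and 2, then 23 and 5 counts in Z1flag and 4 and 4, then 22 and 5 counts in Z2flag libraries. Its rise was likewise largely in postconfluent replicate 1 of each line, at 1.21 CPM or less. The summed level of the muscle list was 3.09 to 3.42, then 4.69 to 18.3 CPM in Z1flag and 3.29 to 3.47, then 4.91 to 5.47 CPM in Z2flag cells. Beside FXYD2, of 6 kidney tubule genes SLC12A1 and AQP2 had 0 counts, and of the 2 tested CDH16 rose and LRP2 fell in both lines. The kidney list summed to 541 to 1001, then 128 to 254 CPM in Z1flag and 600 to 622, then 139 to 161 CPM in Z2flag cells. Most of each sum came from 1 gene: MBP in the Schwann cell and glia list, TNNT2 in the muscle list and LRP2 in the kidney list. LRP2 stood at 540 to 1000 CPM in subconfluent and 109 to 196 CPM in postconfluent libraries. The part of the marker genes in the results was not tested. In bulk RNA, more cells that express a gene and more RNA per cell cannot be told apart.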

How the data were processed

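The deposited values are raw gene counts, which the authors made with STAR 2.5.2b, SAMtools, HTSeq and hg38, per the submitters' processing notes, with the counting annotation, mode and strand setting not given in the sources used here. Per the labels' protocols the libraries were strand-specific, rRNA-depleted and paired-end. Ambiguous reads made up 5.39% to 7.86% of reads listed, and HTSeq classes of unassigned reads were left out. Of 58302 gene IDs, 58039 are in GENCODE v29 and 57532 have a symbol.

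The members and lists were chosen with earlier results of these data known. Counts were fitted in R 4.3.3 with edgeR 4.0.16 (TMM, robust quasi-likelihood fit of 4 group means over 8 libraries, 4 residual degrees of freedom), with filterByExpr (minimum count 10, minimum total 15) leaving 18240 genes, and Benjamini-Hochberg adjustment at 0.05. The SE is the log2 fold change divided by the square root of F. The fit was checked on simulated counts. No replicate block was used. Count ratios have exact (Clopper-Pearson) 95% intervals from scipy 1.17.1, and a group at 0 was set at 3 counts. Log2 CPM used a prior count of 2.

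Named genes were all 7 members, tested relatives among beta, FXYD and LGI genes, up to 3 genes of each other list by adjusted p with a mean of at least 1 CPM, coding neighbours within 250 kb and the 5 genes most alike. The sodium channel genes SCNN1A and SCNN1D are given besides, without values from the alternatives. Alternatives were upper-quartile or RLE scaling, limma 3.58.1 voom, DESeq2 1.42.0, no filter, at least 5 CPM in 2 libraries, a replicate block, only the libraries compared, and leaving out each library. Python 3.11.15, pandas 2.3.3, numpy 2.4.6 and matplotlib 3.10.9 were used for tables and figures. A few genes of the lists and neighbourhood are not reported here, and counts over the lists, and over the neighbours, leave them out.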

Additional observations from a re-analysis of the deposited data

How the results depend on the processing

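Of 180 alternative values of the 5 tested members within a line, 0 changed sign, 9 (ATP1B3 in Z1flag cells) lost the call and 1 (ATP1B1 in Z1flag cells without postconfluent Z1flag replicate 2, -0.71) gained it; the members were chosen on this difference, so this is a description and no support; of 637 values of other named genes, 575 kept both, 48 lost the call, 10 gained it and 4 changed sign. Upper-quartile scaling moved the median change of all genes from 0.04 to 0.26 in Z1flag and from -0.05 to 0.11 in Z2flag cells, and the share of calls that were higher from 52.7% to 67.1% and from 48.6% to 60.4%; against those medians ATP1B1 and ATP1B3 stayed lower. Genes called numbered 7380 in Z1flag and 6864 in Z2flag cells, and 3757 to 8862 and 2894 to 9108 on leaving out 1 library; the cause was not tested beyond the smaller number of samples. Both Z1flag libraries of experiment 1, whose share of reads in no feature was highest, were left out as an alternative chosen after seeing the data: 4865 genes were then called in Z1flag cells, ADAM22 there became -0.45, ATP1B1 between subconfluent lines -0.0947 and FXYD3 between postconfluent lines 0.51. Without the filter on low counts, which tests more genes, 41 genes were called for the interaction, 2 between subconfluent and 221 between postconfluent lines; on leaving out 1 library the interaction gave 0 to 190 and the postconfluent lines 0 to 2252. Other values that changed sign on leaving out 1 library, none of them called, ranged from -0.34 to 0.75 for ADAM22 in Z1flag cells, -0.50 to 0.68 for ZNF792 in Z2flag cells (-0.0072 with voom), -0.0209 to 0.62 for ATP1B1 in the interaction, -0.0730 to 0.29 for ATP1B1 and -0.0025 to 0.0687 for ATP1B3 between subconfluent lines, and -0.44 to 0.52 for FXYD3 between postconfluent lines, where LGI4 was -0.0244 with upper-quartile scaling. The causes were not tested. With a replicate block, 7155 genes were called in Z1flag and 6627 in Z2flag cells and 0 between lines; NKAIN4 in Z2flag cells then had an adjusted p of 0.0576. Same-numbered libraries deviated together only weakly (r across genes -0.18 to 0.178), so the numbers were not taken to pair the libraries. With the postconfluent Z2flag numbers crossed, chosen after seeing the data, 7226 and 6845 genes were called. A fit of only the libraries compared does not apply to the interaction. Depth limits FXYD1, FXYD2 and the subconfluent levels of FXYD3 and LGI4, which rest on 0 to 11 counts per library.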
